A study of Homo sapiens with 8 samples.

Results

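The E2F and RB family genes were followed on the Ago2-RIP-Chip arrays of ST486, a cell line established from Burkitt lymphoma. The family was taken as 10 genes, E2F1 to E2F7, RB1, RBL1 and RBL2, of the 16554 genes that a probe of the array named by RefSeq accession, and 18 probes mapped to them. The cells were transduced with the MXW-PGK-IRES-GFP vector, either empty (EV-ST486) or carrying miR-155 (miR-155-ST486). The paper describes sorting of GFP+ cells for the check of miR-155 overexpression. RNA was taken from the total lysate (T) and from the material immunoprecipitated with an antibody against Ago2 (IP), which gave 4 RNA samples. Each RNA was labelled once with Cy3 and once with Cy5 and was hybridized against the other fraction of the same cells, so that 4 arrays carried 8 channels.

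There was 1 RNA sample per condition (n = 1), so the values are given without tests or p-values. The spread between both labellings is the only error available, and it covers labelling and hybridization but no cultures. The arrays lay on 2 slides and none of them held both vectors, so slide and vector cannot be told apart. The lysates were bulk samples, in which fewer cells with a transcript and less transcript per cell cannot be told apart. Probes for the B-cell genes MS4A1, CD79A, CD79B and MME were detected in all 8 channels, PAX5 in none, and CD22 in 7. Of the 9 probes for T-cell, myeloid, epithelial and endothelial genes, CD14 was detected in 5 channels and the other 8 in none. BCL6 and COL1A1, also on these marker lists, were matched by no probe.

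E2F proteins bind promoters of genes needed for DNA synthesis and the cell cycle, and the pocket proteins RB1, RBL1 and RBL2 hold them in check until cyclin-dependent kinases phosphorylate the pocket proteins. E2F1, E2F2 and E2F3 are the activators, E2F4 and E2F5 repress together with the pocket proteins, E2F6 represses without binding them, and E2F7 is an atypical repressor. MYC, which is driven by a translocation in Burkitt lymphoma, raises both E2F genes and the miR-17-92 cluster, and miRNAs of that cluster are textbook regulators of E2F1, E2F2 and E2F3. Ago2 is the protein that carries miRNAs on their target transcripts, so the IP/T ratio measures how strongly a transcript was recovered with it. The arrays measured no miRNA level.

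The mature miRNAs that bear on the family are shown because their seeds, bases 2 to 8 in capitals, are the part that pairs with a target transcript. They were taken from RefSeq (GRCh38.p14). The first 4 share the seed AAAGUGC and come from the miR-17-92 cluster or from the related miR-106b-25 cluster.
miR-17-5p: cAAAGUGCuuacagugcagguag
miR-20a-5p: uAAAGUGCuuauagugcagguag
miR-106b-5p: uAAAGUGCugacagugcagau
miR-93-5p: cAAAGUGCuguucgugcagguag
miR-18a-5p: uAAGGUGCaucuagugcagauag
miR-19a-3p: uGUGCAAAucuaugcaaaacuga
miR-19b-3p: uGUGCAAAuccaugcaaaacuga
miR-92a-3p: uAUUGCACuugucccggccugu
miR-155-5p: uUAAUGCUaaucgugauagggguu
miR-17-5p lies at chr13:91350618-91350640 on the plus strand and miR-155-5p at chr21:25573983-25574006 on the plus strand. The seed of miR-155-5p, UAAUGCU, matches none of the seeds of the other miRNAs shown.

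Of the 18 probes of the family, 14 passed the filters on detection and on agreement of the labellings, and they covered 9 of the 10 genes. RBL1 had no probe that passed. The values are signals after quantile normalization over the 8 channels, in arbitrary units, and a probe is compared only with itself. An IP/T ratio of at least 2, the threshold of the study, was reached by 6 of the 14 probes in EV-ST486 (12.1% of all 15529 probes that passed), by 5 in miR-155-ST486 (12.2%) and by the same 5 in both vectors (10.2%). These 5 probes belonged to E2F2, E2F3, E2F5, E2F6 and E2F7. On every one of the 4 arrays taken alone, 4 of the 14 probes reached 2 (8.20%), and E2F5 and E2F7 reached 8 in both vectors (1.22%). With the brightest probe taken for each gene, 4 of 9 genes of the family reached 2 in both vectors, E2F2, E2F3, E2F5 and E2F7, against 12.0% of 8313 genes. Over the 14 probes, IP/T had a median of 1.53 without and 1.44 with miR-155, against 0.900 and 0.882 for all probes that passed. On the log2 scale the medians in EV-ST486 were 0.62 against -0.15. With normexp background correction and quantile normalization they were closer, 0.12 against -0.03. All 5 calls held without quantile normalization, with total RNA in Cy5 alone and with outlier spots left out. They also held with the authors' deposited values, which are nearly the same signals. Other filters dropped none of the 5 probes and left their ratios unchanged. With normexp background correction, loess and Aquantile the probes of E2F3, E2F5 and E2F7 failed the filters. Of the 14 family probes then kept, none reached 2 in EV-ST486 and 1 did in miR-155-ST486. The share of all probes at 2 under that setting is not given here. With the other normexp settings, and with total RNA in Cy3 alone, the E2F6 probe fell below 2.

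**Figure D1:**
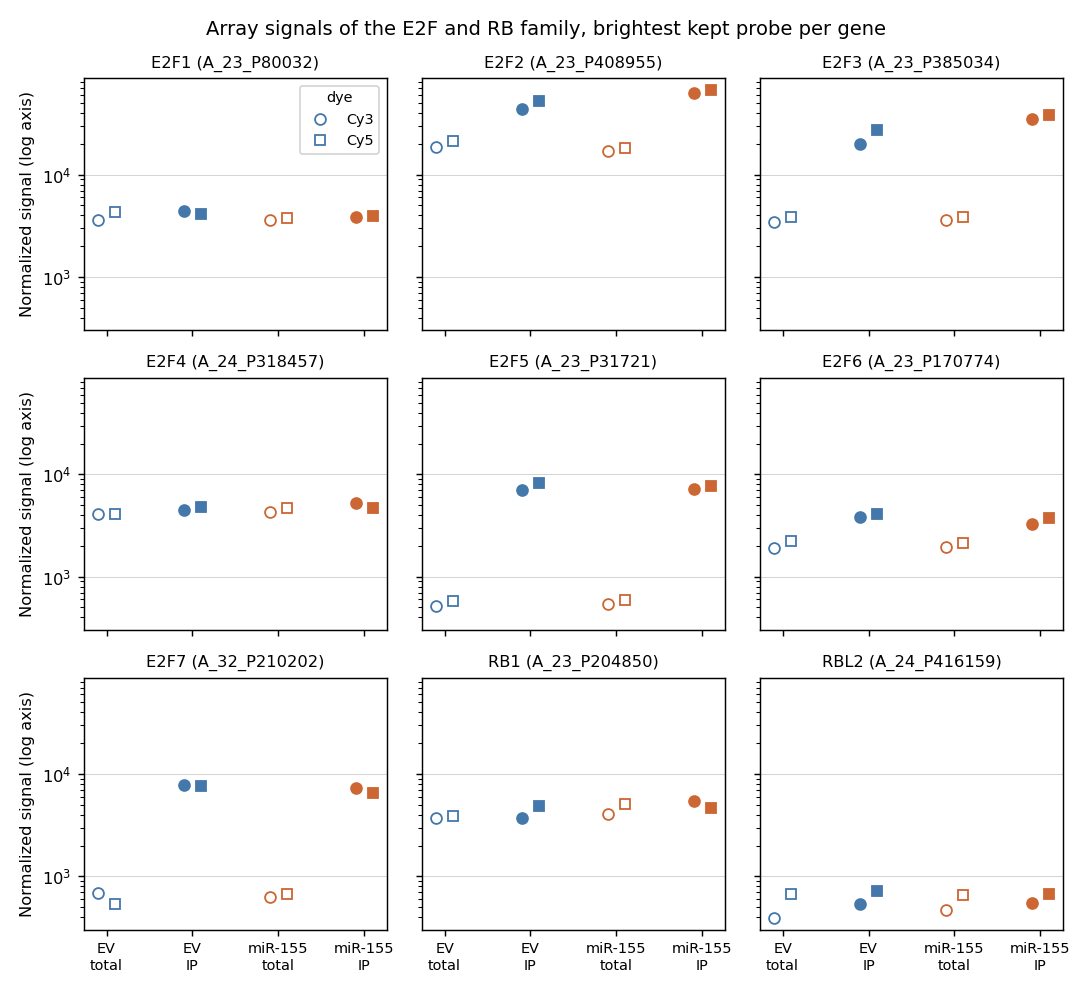
Normalized array signal (log axis, arbitrary units) of the brightest probe that passed the filters for each of 9 genes, in total RNA (open symbols) and IP RNA (filled symbols) of EV-ST486 and miR-155-ST486, each labelled with Cy3 (circles) and Cy5 (squares). IP signals lie far above total signals for E2F3, E2F5 and E2F7 and close to them for E2F1, RB1 and RBL2.

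Among the activators, E2F1 was recovered alike in both fractions, E2F2 was enriched in IP 2.40-fold to 3.70-fold and E2F3 6.45-fold to 9.75-fold. E2F1, which switches on S phase genes, is spotted 10 times on each array. Its signals in EV-ST486 were 3599 (Cy3) and 4321 (Cy5) in T and 4459.9 and 4131 in IP, and in miR-155-ST486 3607 and 3761 in T and 3881 and 3958 in IP. All 8 signals lay in one narrow band and the fractions overlapped in EV-ST486. IP/T was 1.09 in EV-ST486 (1.15 with total RNA in Cy3 and 1.03 with total RNA in Cy5) and 1.06 in miR-155-ST486 (1.10 and 1.03), near the percentiles 64.4 and 63.6 of all probes that passed. Across the 10 spots the coefficient of variation of the signal before quantile normalization was between 3.77% and 12.7%.

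E2F2, an activator that acts beside E2F1 and E2F3, was measured by probe A_23_P408955. Its signals in EV-ST486 were 18837 and 21305 in T and 43996 and 52473 in IP, and in miR-155-ST486 16865 and 18347 in T and 62955 and 67399.7 in IP. Every IP signal lay above every T signal, and the IP signals of miR-155-ST486 lay above those of EV-ST486 while its T signals lay below. The resulting IP/T ratio was 2.40 in EV-ST486 (2.79 and 2.07) and 3.70 in miR-155-ST486 (4.00 and 3.43). The ratio of both, miR-155/EV, was 1.54 (1.43 and 1.66), below the threshold of 2. The other E2F2 probe, A_23_P125990, was detected in 6 channels and its labellings differed by up to 5.35-fold, so it was left out and gives no second measure of E2F2.

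E2F3, the activator with the strongest recovery, was measured by 1 probe. Its signals in EV-ST486 were 3410.1 and 3864 in T and 20103 and 27307 in IP, and in miR-155-ST486 3583 and 3899.6 in T and 34720.4 and 38274 in IP. The T signals of the vectors overlapped, whereas the IP signals did not. The IP/T ratio was 6.45 in EV-ST486 (8.01 and 5.20) and 9.75 in miR-155-ST486 (10.7 and 8.90), and miR-155/EV was 1.51 (1.33 and 1.71). With normexp background correction and quantile normalization in place of the processed signals, the log2 IP/T ratio fell from 2.69 to 1.99 in EV-ST486 and from 3.29 to 2.51 in miR-155-ST486, still past the threshold.

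Among the repressors, E2F5 had the highest IP/T ratio of the family, and neither E2F4 probe had a mean ratio above 1.13. E2F5, which works with RBL2 in resting cells, gave signals in EV-ST486 of 513 and 577 in T and 7081 and 8246 in IP, and in miR-155-ST486 of 535 and 597 in T and 7134 and 7776 in IP. T and IP were separated by more than 10-fold with either dye, and the vectors overlapped in both fractions. The IP/T ratio was 14.1 in EV-ST486 (16.1 and 12.3) and 13.2 in miR-155-ST486 (14.5 and 12.0), at percentiles 99.4 and 99.5. The log2 IP/T ratio of 3.81 in EV-ST486 was 1.89 with normexp and quantile normalization and 3.37 when high local backgrounds were replaced first, so the size of the ratio depended on the background correction while its side of the threshold did not under those settings.

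E2F4, the repressor found in resting and cycling cells alike, was measured by 2 probes that disagreed. A_24_P318457 gave 4141 and 4065 in T and 4462 and 4809 in IP of EV-ST486, and 4310.2 and 4708 in T and 5291 and 4740.1 in IP of miR-155-ST486. Its IP signals lay slightly above its T signals, with ratios of 1.13 and 1.11. A_23_P152218 gave 1325 and 988 in T and 673 and 442 in IP of EV-ST486, and 1019 and 758 in T and 619 and 568 in IP of miR-155-ST486. Here T was above IP with both dyes, with ratios of 0.476 in EV-ST486 (0.333 and 0.681) and 0.675 in miR-155-ST486 (0.557 and 0.817). No probe of the family had a ratio of at most 0.5 in both vectors (0 of 14, against 6.51% of all probes that passed). The ratio in EV-ST486 differed more than 2-fold between the dye orientations, and its log2 value of -1.07 was -0.32 with normexp and quantile normalization.

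E2F6, which represses as part of Polycomb complexes, was measured by 4 probes of 1 RefSeq transcript. A_32_P230720 gave 582 and 583 in T and 1247 and 1367 in IP of EV-ST486, and 597 and 568 in T and 1246 and 1140.3 in IP of miR-155-ST486. IP was above T by a similar step in both vectors, with IP/T ratios of 2.24 (2.35 and 2.14) and 2.05 (1.91 and 2.19). A_32_P27271 had ratios of 2.16 and 1.96, and A_23_P170774 of 1.93 and 1.73. The ranges between dye orientations of these 3 probes overlapped, though for A_23_P170774 only at their ends. A_32_P12610 had ratios of 0.939 and 1.20, outside that range. The call for A_32_P230720 rests on a narrow margin: its lowest ratio among the alternatives was 1.11, in EV-ST486 with normexp, loess and Aquantile, and with total RNA in Cy3 alone it was 1.91 in miR-155-ST486.

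E2F7, an atypical repressor that binds DNA without a dimerization partner, was measured by 1 probe. Its signals in EV-ST486 were 686 and 540.5 in T and 7848 and 7668 in IP, and in miR-155-ST486 624 and 678 in T and 7249 and 6545 in IP. IP was more than 8-fold above T with either dye in both vectors. The IP/T ratio was 12.7 in EV-ST486 (11.2 and 14.5) and 10.6 in miR-155-ST486 (10.5 and 10.7), at percentiles 99.4 and 99.2. With normexp and quantile normalization the log2 ratio of 3.67 in EV-ST486 was 1.56. E2F8, the other atypical E2F, had ratios of 2.88 and 2.79.

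The pocket proteins showed no IP/T ratio of 2 or more. RB1, the retinoblastoma tumour suppressor, is spotted 10 times, and probe A_23_P204850 gave 3676 and 3894 in T and 3729.9 and 4867 in IP of EV-ST486, and 4021 and 5051 in T and 5458 and 4652 in IP of miR-155-ST486. The fractions overlapped in both vectors. IP/T was 1.13 in EV-ST486 (1.32 and 0.958) and 1.12 in miR-155-ST486 (1.16 and 1.08), and the spots varied with a coefficient of variation between 3.06% and 21.2%. The other RB1 probe, A_24_P102636, was detected in 5 channels and its labellings differed by up to 6.52-fold.

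RBL2, the pocket protein of resting cells, had ratios of 0.907 (0.695 and 1.18) and 1.05 (0.917 and 1.21) on A_23_P26413, which was detected in 5 channels, and of 1.22 (1.86 and 0.797) and 1.09 (1.42 and 0.828) on A_24_P416159. All of these ratios, those of A_23_P26413 included, lay on both sides of 1 between the dye orientations. RBL1, the pocket protein whose level rises in cycling cells, gave no usable ratio. Probe A_23_P28733 was detected in 5 channels, with signals of 132 and 70.4 in T and 139 and 105 in IP of EV-ST486, and its labellings differed by 2.01-fold, just past the limit of 2. Probe A_24_P276102 was detected in 1 channel.

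**Figure D2:**
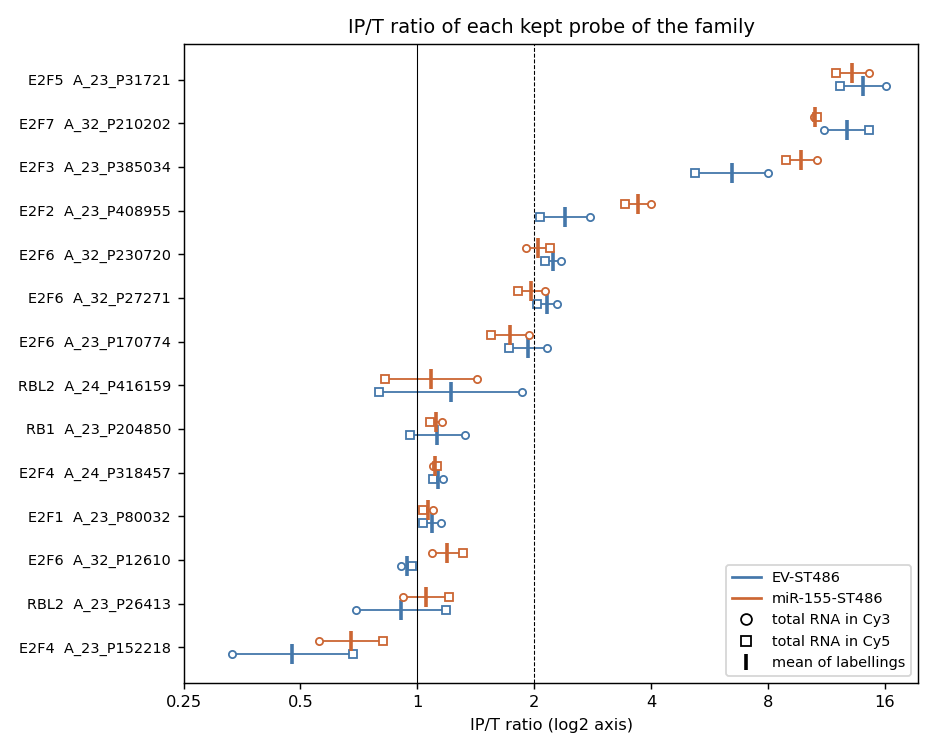
IP/T ratio (log2 axis) of the 14 probes that passed the filters, for EV-ST486 (blue) and miR-155-ST486 (orange), with total RNA in Cy3 (circle), in Cy5 (square) and the mean of the labellings (vertical bar); the solid and dashed lines mark ratios of 1 and 2. E2F5 and E2F7 lie highest, E2F3 and E2F2 follow, 3 E2F6 probes lie near 2, and RB1, RBL2, E2F1 and 1 E2F4 probe lie near 1.

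Ranked by IP/T ratio in EV-ST486, the order was E2F5, E2F7, E2F3, E2F2, E2F6, then RBL2, E2F4, RB1 and E2F1 by their highest probe. E2F5 and E2F7 overlapped between dye orientations, as did E2F2 and E2F6, while E2F3 was separate from its neighbours. In miR-155-ST486 the order of the first 5 genes was the same, and the range of E2F3 reached that of E2F7. Over the 14 probes, the dye orientations differed by a median of 1.30-fold in EV-ST486 cells and 1.19-fold in miR-155-ST486 cells, against 1.35-fold and 1.22-fold for all probes that passed.

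No family probe passed the threshold between the vectors. The miR-155/EV ratio ran from 0.831 (E2F7) to 1.54 (E2F2), with none of the 14 probes at 2 or more (1.15% of all probes that passed) and none at 0.5 or less (0.477%). The median log2 ratio of the 14 probes was -0.03, against -0.02 for all probes. Both dye orientations of miR-155-ST486 lay above both of EV-ST486 for E2F2, E2F3 and E2F6 A_32_P12610 (3 of 14, against 13.3%), and below them for E2F7 (1 of 14, against 16.3%). The log2 miR-155/EV ratio of E2F7, -0.27, turned to 0.22 with high local backgrounds replaced, loess and Aquantile, while those of E2F2 and E2F3 stayed above 0 wherever their probes were kept. For E2F2 the IP signal in miR-155-ST486 was 1.36 times and the T signal 0.878 times that in EV-ST486, and for E2F3 they were 1.56 times and 1.03 times. In total RNA, 5 of the 14 probes were higher in miR-155-ST486 with both dyes (37.3% of all probes) and 3 were lower (34.5%), shares that are close to or below those of all probes.

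**Figure D3:**
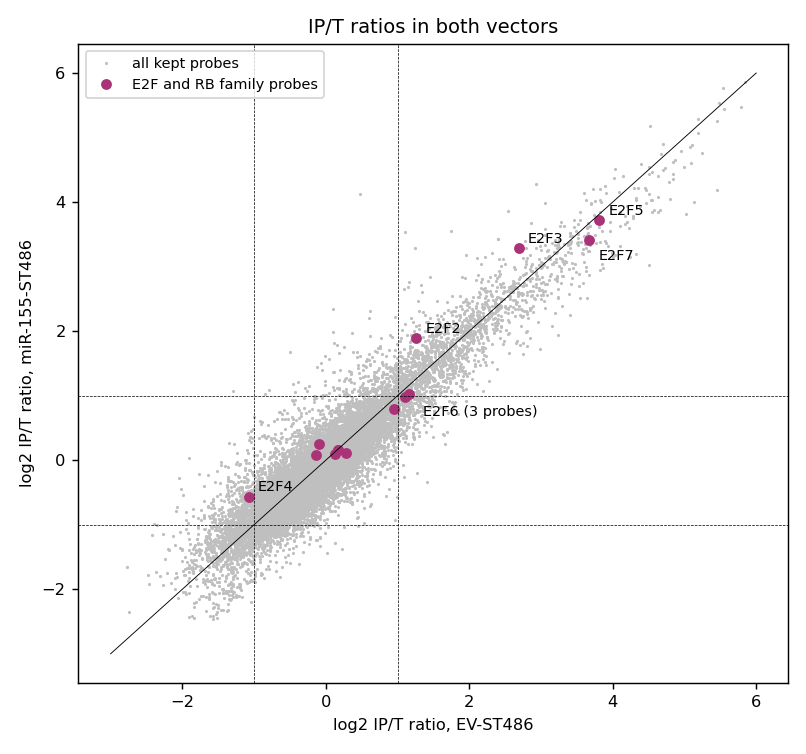
Log2 IP/T ratio in EV-ST486 (x axis) against miR-155-ST486 (y axis) for all 15529 probes that passed the filters (grey) and the 14 probes of the family (purple); dashed lines mark ratios of 0.5 and 2 and the solid line equal ratios. E2F2 and E2F3 lie above the line and E2F7 below it, and no family probe reaches a miR-155/EV ratio of 2.

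Measured by the distance of their log2 signals over the 8 channels, each probe centred on its own mean, the genes most like E2F5 were TMCC1 at 0.36, HERPUD1 at 0.43 and RHEBL1 at 0.43, where the median distance over all probes was 5.57. Their IP/T ratios in EV-ST486 were 13.6, 13.3 and 14.2. That these lie near the ratio of E2F5 follows from the choice, because IP/T is made from the same signals as the distance. Most like E2F4 A_23_P152218 were MYBL2 at 0.20, MGAT4B at 0.21 and TCF7 at 0.22, with a median over all probes of 1.45.

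The wider pathway was described through 4 lists, with each gene named by its brightest probe that passed. The E2F partners and the MuvB complex, which represses cell cycle genes with the pocket proteins, had 10 probes that passed for 8 of 9 genes. LIN54, the DNA-binding subunit of MuvB, had IP/T ratios of 4.47 in EV-ST486 cells and 3.82 in miR-155-ST486 cells, and E2F8 and LIN54 gave the 2 of 10 probes at 2 or more in both vectors, against 10.2% of all probes. The LIN54 probe was detected in 7 channels, and its ratio in EV-ST486 was 3.09 with total RNA in Cy3 and 6.47 with total RNA in Cy5. LIN9 followed with 1.44 and 2.05 and RBBP4 with 1.14 and 0.954. The other LIN9 probe that passed, A_23_P301995, was detected in 7 channels and had 1.08 and 2.20. Its miR-155/EV ratio was 2.05 (2.61 and 1.60), the 1 of 10 probes of this list at 2 or more, against 1.15% of all probes. The dimerization partners TFDP1 and TFDP2, without which the typical E2F proteins bind DNA poorly, lay low, with 0.616 and 0.719 for TFDP1 and 0.392 and 0.407 for TFDP2, as did MYBL2 (0.525 and 0.642) and LIN37 (0.613 and 0.599). The list median was 0.814 in EV-ST486 cells and 0.829 in miR-155-ST486 cells.

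The kinases that release E2F and their regulators had 12 probes that passed for 11 of 15 genes, 4 of the 12 probes at 2 or more in both vectors, against 10.2% of all probes. CDKN1B, which encodes the inhibitor p27, had IP/T ratios of 16.3 and 22.8. CCNE1, the cyclin E1 that drives CDK2 in late G1, had 14.96 and 17.7. CCNE2 had 6.70 and 3.51, with a T signal 2.13-fold as high in miR-155-ST486 and a miR-155/EV ratio of 0.523. Its probe was detected in 7 of 8 channels and its labellings differed. The log2 T change was 0.57 with Cy3 and 1.61 with Cy5. The miR-155/EV ratio was 0.654 with total RNA in Cy3 and 0.418 with total RNA in Cy5. CDKN1A, which encodes p21, had 3.78 and 3.87. CDK2 (0.837 and 0.966), CDK4 (0.975 and 0.831), CDKN2D (0.796 and 0.746) and CDKN2A (1.09 and 0.939) lay near 1. The cyclins, kinases and inhibitors together had medians of 1.07 and 1.11.

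Other described targets of the miR-17-92 cluster had 16 probes that passed for 12 of 16 genes, with CDKN1A counted here too. Of these, 5 of 16 probes were at 2 or more in both vectors, against 10.2% of all probes, and the medians were 1.34 and 1.35, against 0.900 and 0.882. TGFBR2, a TGF-beta receptor, had 9.52 and 9.92. TNFAIP3, an inhibitor of NF-kappaB, had 7.44 and 6.16, and BCL2L11, which encodes the pro-apoptotic BIM, 4.93 and 5.94 on its brightest probe. The 2 other BCL2L11 probes that passed disagreed with it, with 0.813 and 0.848 on A_23_P309991 and 0.923 and 0.773 on A_23_P425954. CYLD (0.693 and 0.688) and STAT3 (1.15 and 1.03) lay between 0.688 and 1.15. The STAT3 probe was dim and detected in 5 of 8 channels, and no other STAT3 probe passed the filters. Its ratio in EV-ST486 was 0.734 with total RNA in Cy3 and 1.82 with total RNA in Cy5. BMPR2 had 0.603 and 1.52 on a dim probe detected in 5 of 8 channels, and its other probe did not pass the filters. The miR-155/EV ratio of this dim probe was 2.51 (2.72 and 2.33). It was the 1 of 16 probes of this list at 2 or more, against 1.15% of all probes.

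**Figure D4:**
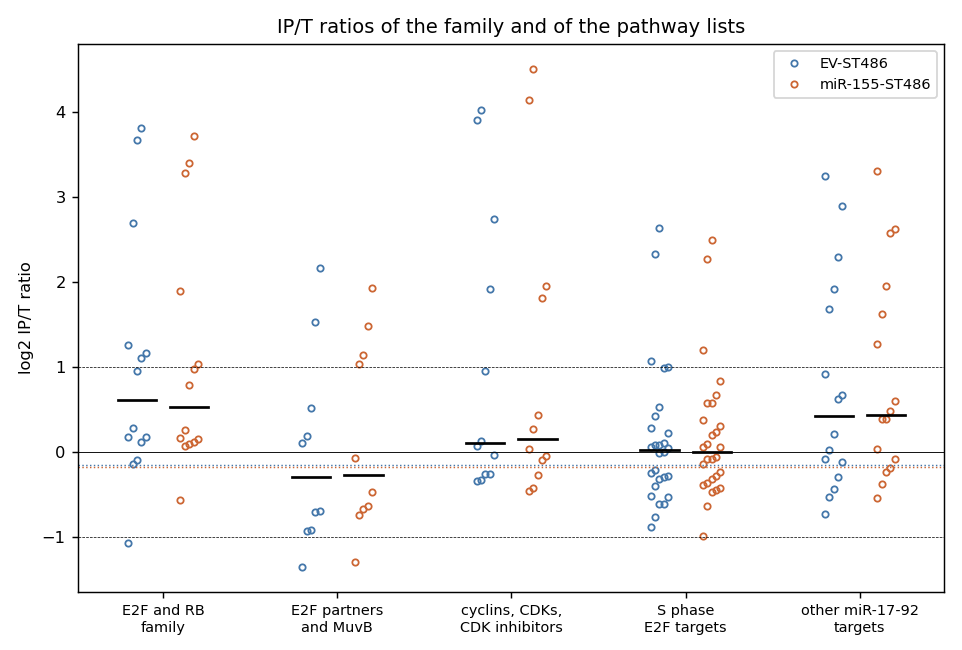
Log2 IP/T ratio of every probe that passed the filters in the E2F and RB family and in 4 pathway lists, for EV-ST486 (blue) and miR-155-ST486 (orange), with list medians as black bars, the medians of all probes as dotted lines, and ratios of 0.5 and 2 as dashed lines. The family and the lists each spread from near or below 1 to far above 2, and the S phase targets lie around 1 with 2 probes of CDC25A above the rest.

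S phase genes that E2F proteins are known to switch on had 28 probes that passed for 21 of 22 genes. Their IP/T medians were 1.02 and 1.00, and 2 of 28 probes were at 2 or more in both vectors, a share below the 10.2% of all probes, both of CDC25A, the phosphatase that activates CDK2, whose brighter probe had 6.22 and 5.62. CCNA2, which encodes cyclin A2, had 1.99 and 2.31, EZH2, the Polycomb methyltransferase, 2.09 and 1.49, and MCM7 1.34 and 1.49. The lowest were the origin proteins ORC1 (0.590 and 0.504) and CDC6 (0.652 and 0.763), MCM4 (0.802 and 0.745) and MCM6 (0.817 and 0.732).

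In total RNA these S phase genes were higher in miR-155-ST486. With both dyes, 24 of the 28 probes were higher in miR-155-ST486 and none was lower, against 37.3% and 34.5% of all probes that passed, and the median log2 change of T signal was 0.42, against 0.02 for all probes. Of the subunits of the replicative helicase, MCM6 had a T signal 1.92-fold as high in miR-155-ST486, MCM3 1.59-fold, MCM4 1.54-fold and MCM2 1.53-fold, while MCM5 with 1.36-fold and MCM7 with 1.32-fold lay near the list median of 1.34-fold. RRM1, a subunit of ribonucleotide reductase, was 1.69-fold and POLA1, the catalytic subunit of DNA polymerase alpha, 1.67-fold. CDC6 was the lowest with 0.884-fold. Without quantile normalization the T signals of all probes were higher in miR-155-ST486 by a median of 0.44 on the log2 scale and those of the S phase genes by 0.89. The change of the family genes was smaller, with T signals from 0.768-fold to 1.19-fold over the 14 family probes. E2F8, which was counted with the E2F partners and not with the family, was 1.34-fold, as high as the S phase list median. Both labellings come from 1 RNA per vector, and the vectors lay on different slides. The difference between the vectors therefore compares these RNAs and their slides together.

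**Figure D5:**
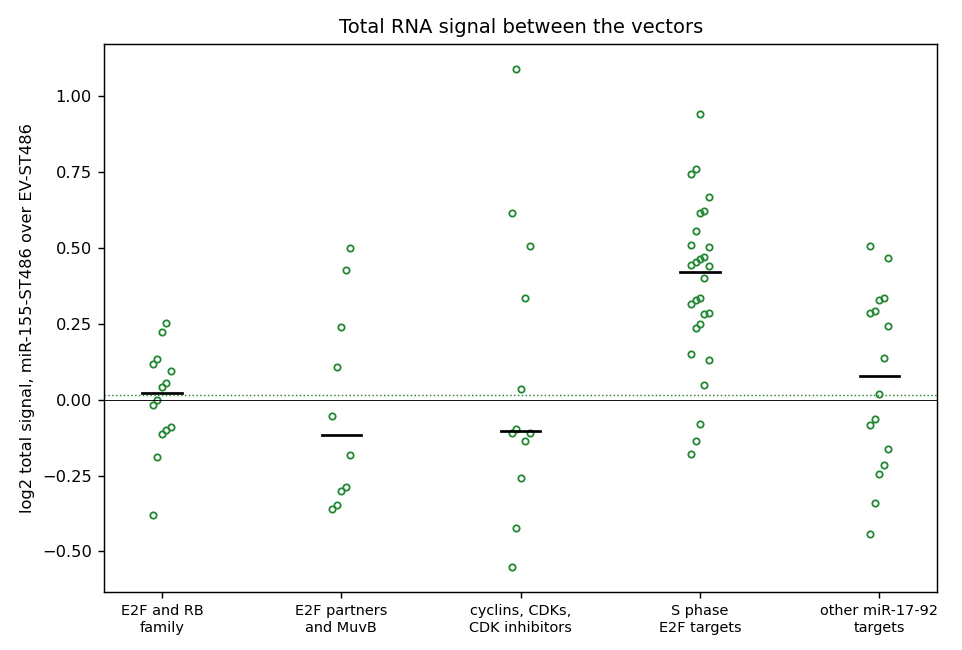
Log2 ratio of total RNA signal in miR-155-ST486 over EV-ST486 for every probe that passed the filters in the family and in 4 pathway lists, with list medians as black bars and the median of all probes as a dotted line. The S phase targets lie mostly above 0 with a median of 0.42, whereas the family lies around 0.

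E2F genes and pocket protein genes are themselves among the promoters that E2F proteins bind, so the promoter windows from 250 bases before to 50 after the gene start (RefSeq, GRCh38.p14) were searched for TTTCGCGC and TTTGGCGC on both strands. Of the 9 family genes with a window, 3 held a match, against 382 of 27305 genes, or 1.399%. Of the S phase list, 9 of 19 genes held one (47.37%), of the E2F partners and MuvB list 1 of 8 (12.5%), and of the cyclin list 0 of 10. The matched windows are shown with 8 bases on either side and the match in capitals, read along the gene.
E2F1, chr20:33686390-33686413, minus strand: aaaaaggaTTTGGCGCgtaaaagt
E2F2, chr1:23531260-23531283, minus strand: gcacgacgTTTGGCGCtaaaaaaa
RBL1, chr20:37096008-37096031, minus strand: ctgcagatTTTCGCGCgctttggc
RBL1, chr20:37095998-37096021, minus strand: tcgcgcgcTTTGGCGCaggtggtt
With bases before the gene start counted as negative, the matches begin at -20 in E2F1, -42 in E2F2, and -26 and -16 in RBL1. The windows of E2F3, E2F4, E2F6, E2F7, RB1 and RBL2 held neither sequence, and E2F5 has no entry. A match describes these letters in the window and was not set against binding.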

How the data were processed

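Total and Ago2-IP RNA of ST486 cells with empty vector or miR-155, 4 RNA samples each labelled with 2 dyes, were measured on 4 Agilent 44k arrays. The deposited files hold intensity values that the authors extracted with Agilent Feature Extraction 10.5.1.1, background-subtracted and dye-normalized per the file headers. The authors also deposited log2 values, made with GeneSpring GX by quantile normalization and filtering. From the processed intensities, control spots were left out (43376 of 45015 spots remained), repeat spots of the 41000 probes were averaged, values below 1 were set to 1, and log2 values were quantile-normalized over 8 channels. A probe was kept where 4 or more channels detected it (19469 probes) and no sample's labellings differed by over 2-fold, which left 15529. Of the 14453 deposited probes, 99.9% lay within 0.05 of the values made here on the log2 scale. No spot was saturated.

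Symbols came from RefSeq accessions and were found for 23953 probes, of which 11041 were kept. The IP/T ratio is the IP signal over the T signal, from mean log2 signals of both labellings, and miR-155/EV is the ratio of the IP/T ratios. Depth does not apply to arrays, and their number, 1 RNA per condition, limits the precision. Named are all members, and of each pathway list the up to 4 genes with the highest and the up to 4 with the lowest mean log2 IP/T ratio on their brightest kept probe, and the 3 genes most like the highest and the lowest member probe. A gene that this rule names and a marker gene are not reported here. For the change in total RNA, MCM2, MCM3, MCM5, POLA1 and RRM1 were chosen after their values were seen. The members and lists were chosen with earlier results of these data known. Alternatives were normexp (offset 50) on median signals with quantile or with loess and Aquantile normalization, each also with local backgrounds above 500 replaced, no quantile normalization, the deposited log2 values, other filters, each dye orientation alone, outlier spots left out, a threshold of 1.5 and 1 probe per gene. The procedure was tested on simulated data. Values were computed with limma 3.58.1 in R 4.3.3, and in Python 3.11.15 with pandas 2.3.3 and numpy 2.4.6, and were drawn with matplotlib 3.10.9.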

Additional observations from a re-analysis of the deposited data

Results flagged for a closer look

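For E2F6 probe A_32_P12610, both dye orientations of EV-ST486 lay below an IP/T ratio of 1 (0.909 and 0.971) and both of miR-155-ST486 above it (1.09 and 1.31), a log2 miR-155/EV ratio of 0.35. This difference was not tested, and the other 3 E2F6 probes had miR-155/EV ratios between 0.898 and 0.913. The contrast between the probes depended on the processing. With normexp, loess and Aquantile the log2 miR-155/EV ratio of A_32_P12610 was 0.09. Under that setting it was 0.39 for A_23_P170774, 0.27 for A_32_P230720 and 0.23 for A_32_P27271.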

How the results depend on the processing

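The 5 probes past the IP/T threshold of 2 in both vectors stayed there in every setting tried except 5, leaving aside 1 probe per gene, which drops E2F6 A_32_P230720 for a brighter probe. Among the settings where all 5 stayed, those that change only a filter leave the ratio of a probe unchanged. E2F6 A_32_P230720 fell below 2 with normexp and quantile normalization, with local backgrounds above 500 replaced under either normalization, and with total RNA in Cy3 alone. With normexp, loess and Aquantile, only E2F2 and E2F6 A_32_P230720 of the 5 passed the filters, none of the 14 probes then kept reached 2 in EV-ST486 (0) and 1 did in miR-155-ST486. These counts stand without the share of all probes at 2 under that setting, which is not given here. The median log2 IP/T ratio of the family probes in EV-ST486 (0.62) was 0.12 with normexp and quantile normalization, 0.055 with normexp, loess and Aquantile, 0.98 without quantile normalization and 1.00 with total RNA in Cy3 alone. With high local backgrounds replaced, this median was 0.34 (quantile) and 0.30 (loess and Aquantile). It was 0.94 with the deposited values, 0.95 with detection in all 8 channels and with 1 probe per gene, and 0.28 without the filter on dye differences. All probes that passed had a median of -0.15 in EV-ST486. Theirs was -0.028 with normexp and quantile normalization and 0.0042 with normexp, loess and Aquantile, so the family lay closer to all probes under these 2 settings. In miR-155-ST486 the family median (0.52) was 0.056 and 0.063 with the same normexp settings, 0.11 and 0.20 with high local backgrounds replaced (quantile; loess and Aquantile), 0.83 without quantile normalization, 0.79 with the deposited values, with detection in all 8 channels and with 1 probe per gene, 0.16 without the filter on dye differences and 0.72 with total RNA in Cy3 alone. There the median of all probes (-0.18) was -0.031 and -0.032 with the same normexp settings. The family probes that passed numbered between 13 and 17 across these settings other than 1 probe per gene. The median log2 miR-155/EV ratio of the family probes was 0.11 with high local backgrounds replaced, loess and Aquantile. The median log2 T change of the S phase genes (0.42) stayed above 0: 0.19 and 0.15 with normexp (quantile; loess and Aquantile), 0.28 and 0.26 with high local backgrounds replaced, 0.89 without quantile normalization and 0.29 with total RNA in Cy3 alone. The log2 miR-155/EV ratio was between 0.56 and 0.98 for E2F2 and between 0.26 and 0.52 for E2F3 under the background and normalization alternatives that kept the probe, and for E2F4 A_23_P152218 it was -0.11 with normexp, loess and Aquantile. With high local backgrounds replaced, loess and Aquantile it was 0.16 for E2F5 and 0.22 for E2F7. The cause of these shifts was not tested.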
